A study of Homo sapiens with 3 samples.

Results

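The forkhead (FOX), SOX and GATA genes are 3 families of transcription factors, and their expression was read in the parental NCI-H1975 line, an established human lung adenocarcinoma cell line. Members were the protein-coding genes whose symbols carry a family name followed by its letter and number. These were 75 genes, made up of 50 FOX, 19 SOX and 6 GATA genes, among 19046 protein-coding genes with a row and 60880 gene rows in all. A further FOX gene of the RefSeq table, FOXD4L6, had no matching row and is not analysed here. The study set wild-type cells against derivatives resistant to anlotinib, a kinase inhibitor used against tumour blood vessel growth, and against resistant cells with knockdown of the transcription factor TFAP2A. Values were read in 1 library, RNA-seq of wild-type cells (replicate 2), which had no drug selection or knockdown by its labels. Resistant cells, knockdown cells and the 2 ATAC-seq samples of wild-type cells were not analysed here. No comparison between cell states and no replicate check was therefore possible, and the values describe levels in this library only.

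Forkhead factors bind DNA through a winged-helix domain, SOX factors through a high-mobility-group box that bends the minor groove, and GATA factors through zinc fingers that read the GATA motif. In the developing foregut and lung, FOXA1, FOXA2 and GATA6 open chromatin and act with NKX2-1 to specify the respiratory epithelium, SOX9 marks the distal tips of the branching airways and SOX2 the proximal airways. Other members act in many tissues: FOXM1 drives the cell division programme, FOXO factors respond to the phosphatidylinositol 3-kinase and AKT pathway, and FOXK factors are present in most tissues.

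The library held 25012733 reads assigned to genes. A gene was called detected at 10 reads or more, and 1 read equalled 0.04 CPM (reads per 1000000 reads of the library). A gene at 0 was given a limit of 3 reads, or 0.12 CPM, and the 95% Poisson interval of 0 reads ends at 0.147 CPM. The 95% intervals given with levels and ratios cover counting error only and take each read as independent. Reads lacking molecular identifiers can be copies of 1 molecule, so the intervals may be too narrow. No transcript lengths were used, so differences between genes are differences in read number and include transcript length. In a bulk library a low count can come from few cells or from little RNA in each cell, and these cannot be told apart. The lung adenocarcinoma label was read against genes of both lung carcinoma types, and each side held genes of many reads and genes of few. Of the glandular side, the lineage factor NKX2-1 had 2926 reads and the aspartic protease NAPSA 595. Of the surfactant genes, SFTPB had 62 reads and SFTPA2 11, but SFTPA1, SFTPC and SFTPD had 1 read each. Of the squamous side, PAX9 had 654 reads and TP63 418, but the keratins KRT14, KRT5 and KRT6A had 8, 2 and 0. PKP1 and DSG3 had 1 and 0 reads, and the squamous lineage factor SOX2 had 34. Of the 7 listed squamous and basal genes 2 were detected (28.6%), and of 13 alveolar and club genes 7 (53.8%). Both shares were below the 69.7% of all protein-coding genes.

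Promoters of members were set beside their reads to show what the expressed and silent genes share that the choice of members did not use. RefSeq promoter windows of 300 bases (250 before and 50 after the annotated start, build GRCh38.p14) matched 53 of the 75 members. The 11 detected members without a window were FOXM1, SOX9, FOXA2, FOXN2, FOXJ1, FOXL1, SOX18, FOXF1, SOX15, FOXH1 and SOX7. In the windows below CpG dinucleotides, the sites of DNA methylation, are in capitals, and the sequences run 5′ to 3′ on the gene's own strand. FOXK1 is shown as the member with the most reads, SOX4 as the SOX gene with the most reads, GATA2 as the leading GATA gene, FOXA1 as a lung pioneer factor with few reads and FOXR2 as a gene at 0.
FOXK1, chr7:4682045-4682344, plus strand: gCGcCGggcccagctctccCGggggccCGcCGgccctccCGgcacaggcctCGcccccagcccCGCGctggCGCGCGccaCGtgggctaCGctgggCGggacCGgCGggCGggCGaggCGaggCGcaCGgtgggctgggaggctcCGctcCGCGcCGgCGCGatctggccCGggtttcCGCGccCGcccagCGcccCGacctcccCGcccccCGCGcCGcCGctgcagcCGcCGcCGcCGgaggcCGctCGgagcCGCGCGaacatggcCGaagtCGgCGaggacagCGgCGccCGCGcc
SOX4, chr6:21593501-21593800, plus strand: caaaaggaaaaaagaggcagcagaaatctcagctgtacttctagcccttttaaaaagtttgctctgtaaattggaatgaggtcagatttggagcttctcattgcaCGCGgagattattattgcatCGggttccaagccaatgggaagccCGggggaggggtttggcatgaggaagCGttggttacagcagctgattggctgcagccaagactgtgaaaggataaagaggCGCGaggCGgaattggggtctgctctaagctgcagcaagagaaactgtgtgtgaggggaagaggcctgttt
GATA2, chr3:128493152-128493451, minus strand: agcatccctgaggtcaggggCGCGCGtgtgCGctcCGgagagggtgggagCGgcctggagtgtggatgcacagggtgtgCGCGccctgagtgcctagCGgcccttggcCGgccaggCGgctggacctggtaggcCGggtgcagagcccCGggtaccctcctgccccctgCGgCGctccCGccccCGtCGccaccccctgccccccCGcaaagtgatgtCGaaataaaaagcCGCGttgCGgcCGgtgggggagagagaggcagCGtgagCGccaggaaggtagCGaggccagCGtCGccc
FOXA1, chr14:37595200-37595499, minus strand: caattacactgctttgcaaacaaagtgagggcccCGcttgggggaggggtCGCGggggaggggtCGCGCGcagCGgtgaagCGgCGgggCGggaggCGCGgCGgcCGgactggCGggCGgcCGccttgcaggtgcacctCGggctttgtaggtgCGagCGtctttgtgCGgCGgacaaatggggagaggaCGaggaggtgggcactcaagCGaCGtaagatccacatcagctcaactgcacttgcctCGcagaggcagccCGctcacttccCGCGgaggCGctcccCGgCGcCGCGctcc
FOXR2, chrX:55623150-55623449, plus strand: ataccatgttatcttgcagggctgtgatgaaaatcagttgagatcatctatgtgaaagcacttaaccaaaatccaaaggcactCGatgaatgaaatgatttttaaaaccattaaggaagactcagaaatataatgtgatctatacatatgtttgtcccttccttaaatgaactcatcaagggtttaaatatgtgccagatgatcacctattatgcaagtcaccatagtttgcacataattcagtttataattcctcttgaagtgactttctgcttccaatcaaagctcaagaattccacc
The FOXK1 window held 55 CpG sites and its gene had 5003 reads. The SOX4 window held 8 CpG sites and its gene had 4042 reads. The GATA2 window held 29 CpG sites with 742 reads, the FOXA1 window 34 sites with 12 reads and the FOXR2 window 1 site with 0 reads. A CpG-dense window therefore stood before genes of many reads and of few, and a CpG-poor window stood before the second most read member. The windows shown were chosen after their values were seen, and FOXR2 is not typical of members with few reads. The median window held 18 CpG sites in the 22 undetected members and 29 in the 31 detected members with a window.

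A little over 1 in 2 members was detected. Of the 75 members 42 (56.0%) had at least 10 reads, beside 69.7% of all protein-coding genes. The share was 58.0% for FOX (29 of 50), 52.6% for SOX (10 of 19) and 50% for GATA (3 of 6). A further 9 members had 1 to 9 reads and 24 were at 0. The members took 30496 reads, or 0.122% of the library (0.121 to 0.123), with 19314 reads (0.0772%) for FOX, 10087 (0.0403%) for SOX and 1095 (0.00438%) for GATA. Reads were concentrated in few genes: the 5 most read members held 54.5% of all reads of the 75. The median detected coding gene had 660 reads, and 12 of the 42 detected members were above it, 7 of them FOX, 4 SOX and 1 GATA.

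**Figure D1:**
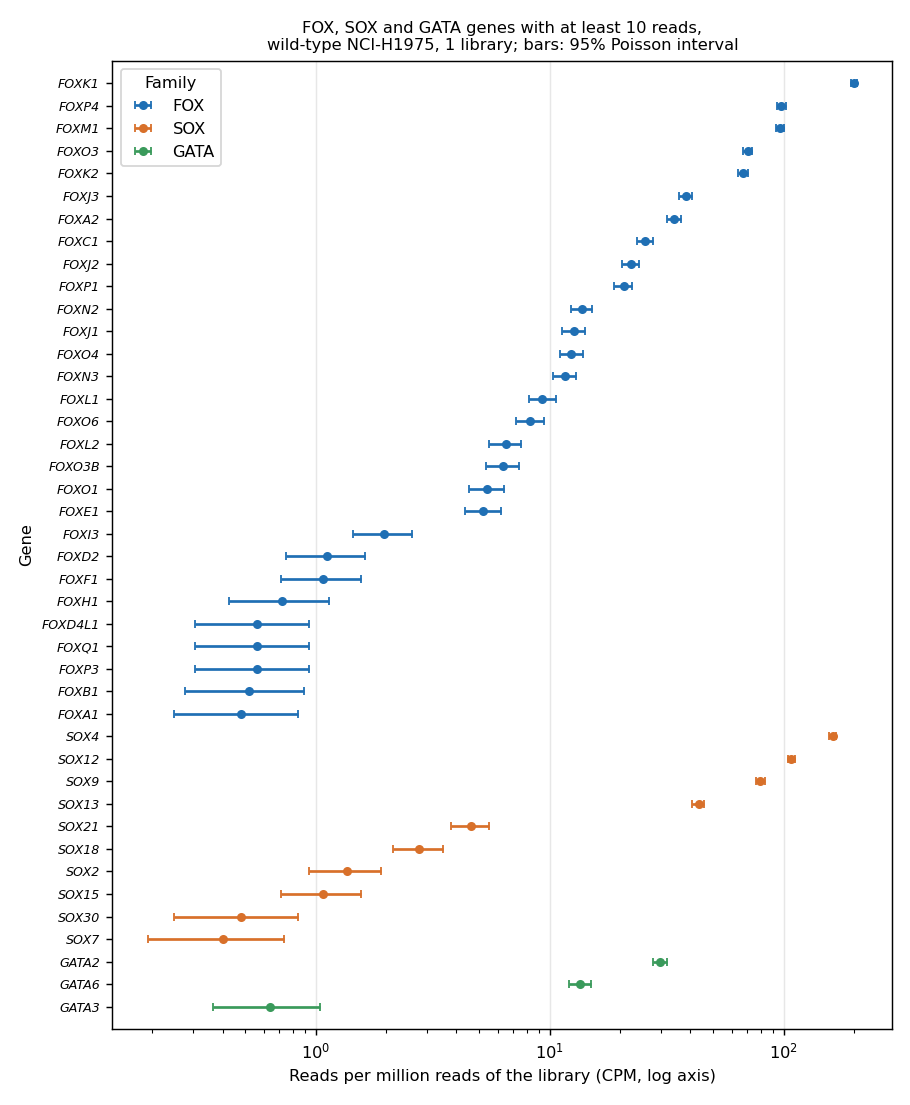
Level of the 42 detected FOX, SOX and GATA genes in the wild-type library, in CPM on a log axis; bars are 95% Poisson intervals and colours are families. Levels run from 0.4 CPM for SOX7 to 200 CPM for FOXK1, and within each family a few genes stand far to the right of the rest.

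**Figure D2:**
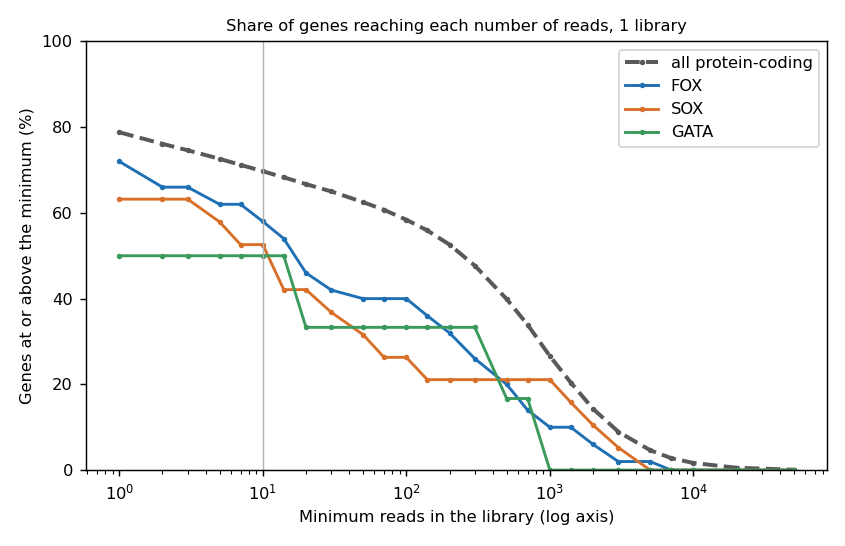
Share of genes (%) with at least the number of reads on the log x axis, for each family and for all protein-coding genes (dashed); the grey line marks 10 reads. At 10 reads the families lie between 50% and 58.0%, below the 69.7% of all protein-coding genes.

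The lung and foregut pioneer factors were carried by FOXA2 in this library. FOXA2, which opens chromatin at foregut and alveolar genes, had 849 reads, or 33.9 CPM (31.7 to 36.3), above 57.1% of detected coding genes. FOXA1, its close relative in airway and alveolar epithelium, had 12 reads, or 0.48 CPM (0.248 to 0.838). FOXA3, best known from liver, had 3 reads. FOXA2 thus held 98.3% of the reads of the 3 genes, and the ratio of FOXA2 to FOXA1 reads was 70.8 (40.3 to 137).

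GATA reads came from GATA2 and GATA6. GATA2, a regulator of blood stem cells and endothelium, had 742 reads, or 29.7 CPM (27.6 to 31.9). GATA6, which acts in the endoderm and alveolar epithelium, had 337 reads, or 13.5 CPM (12.1 to 15.0). GATA3, a factor of T cells and of breast and bladder epithelium, had 16 reads, or 0.64 CPM (0.366 to 1.04). GATA1, the erythroid factor, and GATA4 and GATA5, factors of heart and gut, were at 0. The blood-related subgroup GATA1, GATA2 and GATA3 held 69.2% of GATA reads and the endodermal subgroup GATA4, GATA5 and GATA6 held 30.8%. The ratio of GATA2 to GATA3 reads was 46.4 (28.4 to 81.6) and that of GATA6 to GATA3 was 21.1 (12.8 to 37.3).

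SOX reads came almost wholly from SOX4, SOX12, SOX9 and SOX13, the 4 SOX genes above 1000 reads. SOX4 and SOX12, group C factors of progenitor and many tumour cells, had 4042 reads, or 162 CPM (157 to 167), and 2703 reads, or 108 CPM (104 to 112). SOX11, the third gene of that group and largely a neural factor, was at 0. Group C held 66.9% of SOX reads, and the ratio of SOX4 to SOX12 reads was 1.5 (1.42 to 1.57). SOX9, the distal lung progenitor and cartilage factor of group E, had 1985 reads, or 79.4 CPM (75.9 to 82.9), while its relatives SOX10, a neural crest factor, and SOX8 had 3 and 0 reads. SOX13, a group D factor, had 1082 reads, or 43.3 CPM (40.7 to 45.9), and its relatives SOX6 and SOX5 had 5 and 0.

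The 6 other detected SOX genes had far fewer reads. SOX21, a group B repressor found in the proximal airway, had 115 reads, or 4.6 CPM (3.80 to 5.52). SOX18, a factor of blood and lymph vessels, had 69 reads, or 2.76 CPM (2.15 to 3.49), and its group F relatives SOX7 and SOX17 had 10 and 0. SOX2, the proximal airway and squamous lineage factor, had 34 reads, or 1.36 CPM (0.941 to 1.90). The ratio of SOX9 to SOX2 reads was 58.4 (41.6 to 84.5). SOX15 had 27 reads and the testis gene SOX30 had 12. The neural factors SOX1, SOX3 and SOX14 were at 0.

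In groups D and E of the SOX family and among the FOXA and FOXC genes, reads were held mainly by 1 member while a close relative was at or near 0. A count of 0 gives only a lower bound for a ratio, computed against 3 reads. By that bound SOX4 had at least 1347-fold more reads than SOX11, SOX9 at least 662-fold more than SOX8, SOX13 at least 361-fold more than SOX5 and GATA6 at least 112-fold more than GATA4.

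**Figure D3:**
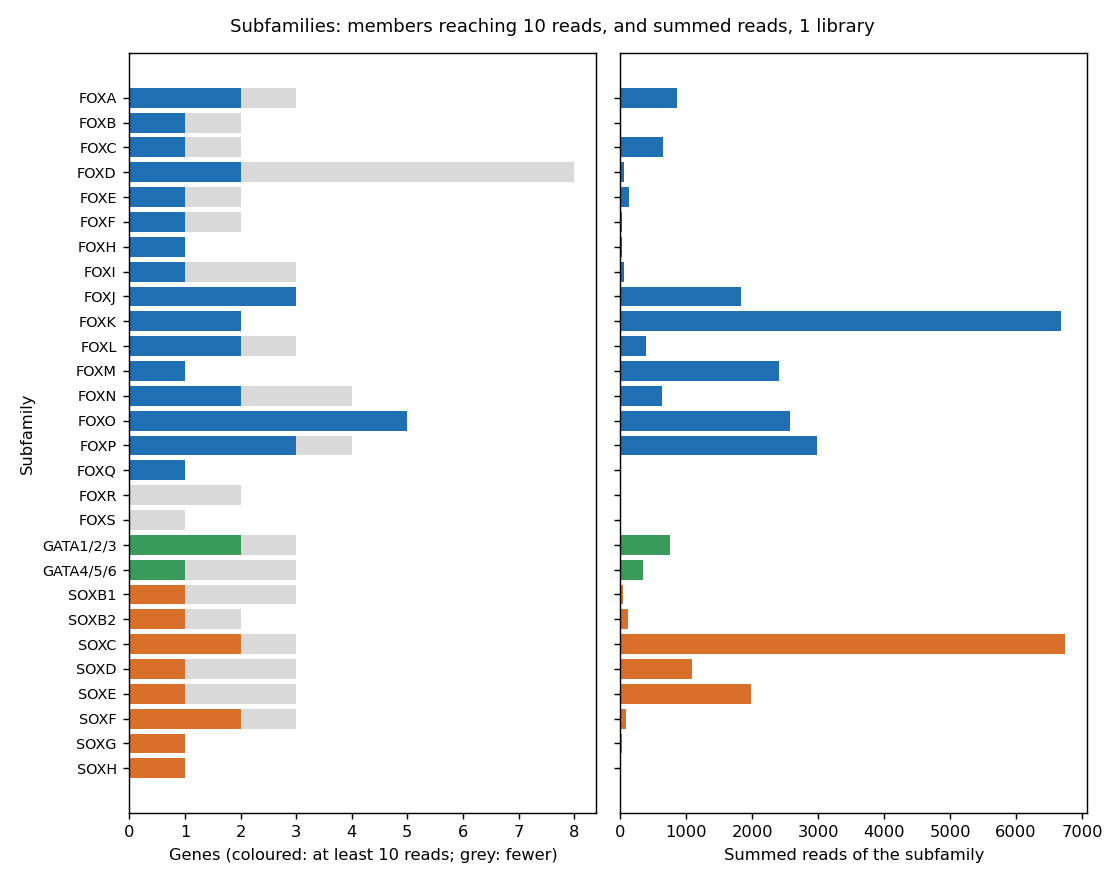
Left, number of genes in FOX, SOX and GATA subfamilies, with those of at least 10 reads coloured and the rest grey; right, summed reads of the subfamily. SOX group C (6745 reads) and FOXK (6676 reads) have the longest bars, while FOXD has 8 genes and 57 reads.

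The group of broadly expressed and ciliary forkheads held the largest share of forkhead reads among the 7 role groups. The FOXJ, FOXK and FOXN genes together had 9137 reads, or 47.3% of FOX reads. Of these 9 genes 7 were detected (77.8%), near the 69.7% of all protein-coding genes. FOXK1 and FOXK2, repressors of autophagy genes and regulators of glycolysis, had 5003 reads, or 200 CPM (195 to 206), and 1673 reads, or 66.9 CPM (63.7 to 70.2), a ratio of 2.99 (2.83 to 3.16). FOXK1 lay above 93.3% of detected coding genes. FOXJ3 and FOXJ2 had 957 and 555 reads, a ratio of FOXJ2 to FOXJ3 of 0.58 (0.521 to 0.645), and FOXN2 and FOXN3 had 342 and 290, a ratio of 1.18 (1.01 to 1.38). FOXN1, the thymic epithelial factor, and FOXN4, a retinal factor, were at 0.

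FOXJ1, the master regulator of motile cilia, had 317 reads, or 12.7 CPM (11.3 to 14.1), above 32.6% of detected coding genes. Of 16 genes of ciliated cells 12 were detected, or 75.0%, beside 69.7% of all protein-coding genes. The median of the list was 3.32 CPM, beside 9.87 CPM over all protein-coding genes. CAPS had 923 reads, RFX2, a factor that acts with FOXJ1, had 655, and the dynein heavy chain DNAH5 had 493. MCIDAS, which lies upstream of FOXJ1, had 105 reads. CCDC39 and DNAH9, 2 axonemal genes, had 8 and 3 reads, and TEKT1 and GMNC were at 0. The share of the list detected was thus near that of all protein-coding genes, and its median was lower.

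FOXM1, which switches on genes of late cell division, had 2412 reads, or 96.4 CPM (92.6 to 100), above 83.4% of detected coding genes. All 6 listed partners of FOXM1 in the MuvB complex were detected, beside 69.7% of all protein-coding genes. Their median of 9.46 CPM was near the 9.87 CPM over all protein-coding genes. They were led by the B-MYB gene MYBL2 with 8265 reads, RBBP4 with 1509 and LIN54 with 271. All 11 listed late cell cycle targets were detected, with a median of 92.3 CPM, and both lists were chosen with earlier results known. The phosphatase CDC25B had 11197 reads, the kinetochore protein CENPF 5092 and the kinase PLK1 3949.

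All 5 FOXO genes were detected, beside 69.7% of all protein-coding genes, and FOXO3 led them. FOXO3 had 1756 reads, or 70.2 CPM (67.0 to 73.6), FOXO4 had 311, FOXO6 had 207 and FOXO1 had 135. The ratio of FOXO3 to FOXO1 reads was 13.0 (10.9 to 15.6) and that of FOXO3 to FOXO4 was 5.65 (5.0 to 6.39). FOXO3B, a near-identical copy of FOXO3, had 158 reads, and the separate values of the copies are uncertain because how reads that fit both were handled is not stated in these sources. FOXO1, FOXO3 and FOXO4 proteins are kept out of the nucleus when AKT phosphorylates them and 14-3-3 proteins bind. All 21 listed upstream regulators were detected, beside 69.7% of all protein-coding genes. Their median was 99.2 CPM, beside 9.87 CPM over all protein-coding genes. The 14-3-3 genes YWHAZ, YWHAE and YWHAG had 15489, 9559 and 8871 reads. The kinase genes AKT1 and AKT2 had 8437 and 2271. All 16 listed FOXO targets with a row were detected, with a median of 39.6 CPM, and both lists were chosen with earlier results known. TXNIP, which limits glucose uptake, had 14201 reads, PINK1 4171 and the ubiquitin ligase FBXO32 3072. Reads give transcript levels and carry no measure of where FOXO proteins lie in the cell.

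Of the FOXP genes, which pair through a leucine zipper, FOXP4 had 2449 reads, or 97.9 CPM (94.1 to 102), and FOXP1 had 517, or 20.7 CPM (18.9 to 22.5). The ratio of FOXP1 to FOXP4 reads was 0.211 (0.192 to 0.232). FOXP2, which with FOXP1 and FOXP4 takes part in lung epithelial development, was at 0, and FOXP3, the regulatory T cell factor, had 14 reads. FOXP1 had at least 172-fold more reads than FOXP2 by the bound of 3 reads. FOX and SOX factors recruit co-repressors of the Groucho family and CtBP. All 7 listed genes of these families were detected, beside 69.7% of all protein-coding genes. Reads of TLE5, CTBP1 and CTBP2 were 7934, 5227 and 3737, and those of TLE1 and TLE4 were 2987 and 69.

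The forkheads of mesoderm and mesenchyme were mostly low. Of 15 genes 6 were detected (40.0%, beside 69.7% of all protein-coding genes), and the group held 5.85% of FOX reads. FOXC1, a mesodermal factor also found in carcinomas, had 641 reads, or 25.6 CPM (23.7 to 27.7), against 9 for FOXC2, a factor of lymph vessels. FOXL1, a factor of the gut mesenchyme, had 233 reads, or 9.32 CPM (8.16 to 10.6), and FOXL2, a factor of the ovary, had 162, or 6.48 CPM (5.52 to 7.55). FOXD2 had 28 reads and FOXF1, a factor of lung mesenchyme and endothelium, had 27. FOXD4L1 had 14 reads, FOXD4 had 4, and FOXD4L3, FOXD4L5 and FOXD4L4 had 1, 1 and 0; these genes are near-identical copies and their separate values are uncertain. FOXD3, a neural crest factor, had 9 reads, and FOXD1, FOXF2 and FOXL3 were at 0.

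Within 2 groups of 3 nearby forkhead genes the reads were unequal. Members were grouped by the distance between their starts alone, so other genes may lie between them. On chromosome 6, FOXQ1, FOXF2 and FOXC1 lie in the same region and had 14, 0 and 641 reads. On chromosome 16, FOXF1, FOXC2 and FOXL1 lie in the same region and had 27, 9 and 233 reads. In both groups a single gene held most of the reads. Of the forkhead genes grouped in pairs in this way, FOXO6 and FOXJ3 had 207 and 957 reads. FOXE3 and FOXD2 had 1 and 28, and FOXD4L5 and FOXD4L4 had 1 and 0.

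Among 13 other developmental forkheads 5 were detected (38.5%, beside 69.7% of all protein-coding genes). The 13 genes together held 1.16% of FOX reads. FOXE1, the thyroid and palate factor, had 130 reads, or 5.20 CPM (4.34 to 6.17). FOXI3 had 49 reads, FOXH1 18, FOXQ1 14 and FOXB1 13. FOXE3 had 1 read. FOXI1, the factor of airway ionocytes, was at 0, as were FOXB2, FOXI2, FOXR1, FOXR2 and FOXS1.

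Genes that act with, or under, the lung factors were read from lists. Of 12 lung and foregut partner factors 9 were detected, or 75.0%, near the 69.7% of all protein-coding genes, and the median of 16.0 CPM stood beside 9.87 CPM over all protein-coding genes. ELF3, an epithelial ETS factor, had 4014 reads, NKX2-1 had 2926 and CEBPD had 1832. CEBPA, a factor of alveolar maturation, had 15 reads, and HNF4G and HNF4A had 3 and 1. Of 13 alveolar and club cell targets 7 were detected (53.8%), with a median of 0.44 CPM. The lipid enzyme LPCAT1 had 18211 reads, the lipid transporter ABCA3 4508 and NAPSA 595. LAMP3 had 146 reads, the surfactant genes SFTPB and SFTPA2 had 62 and 11, and SLC34A2 had 33. The surfactant gene SFTPC had 1 read and the club cell genes SCGB1A1 and SCGB3A2 were at 0. FOXA2 and NKX2-1 were thus read together with some of their alveolar targets and without others. Of 15 gastric, intestinal and hepatic genes, other tissues of FOXA and GATA factors, 2 were detected (13.3%), with AGR2 at 125 reads, CTSE at 21 and VIL1 under the minimum at 9.

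Of 9 GATA cofactors 5 were detected (55.6%, beside 69.7% of all protein-coding genes). LDB1, which bridges GATA complexes, had 1585 reads, ZFPM1 (FOG1), the partner of GATA1, GATA2 and GATA3, had 967 and LMO4 had 683. ZFPM2 (FOG2), the partner of GATA4, had 7 reads, as did TAL1, and LMO2 had 2. TAL1 and LMO2 belong to the GATA complex of blood cells, and their relatives LYL1 and LMO1 had 186 and 49 reads.

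Genes of the tissues in which silent, low or well-read members act were read in the same way, also as a measure of other cells in the culture. In each of these 8 lists the share detected, from 12.5% to 44.4%, was below the 69.7% of all protein-coding genes. Of 11 endothelial genes 3 were detected, with 340 reads for CDH5, 35 for KDR and 10 for VWF, while TEK and ERG had 1 read each and TIE1 was at 0. Of 12 lung mesenchyme genes 5 were detected, with 245 reads for GLI2, 159 for ACTA2 and 150 for PDGFRB, and DCN, LUM and TCF21 at 0. Of 7 blood cell genes 1 was detected, GFI1B with 10 reads, and KLF1, PTPRC and SPI1 had 4, 2 and 1. Beside the 742, 69 and 27 reads of GATA2, SOX18 and FOXF1, the summed reads of these lists were 18 for blood, 387 for endothelial and 610 for mesenchyme genes. The part of such cells in the reads of these members was not tested.

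Of 12 cartilage genes, known targets of SOX9 with SOX5 and SOX6, 4 were detected. COL11A2 had 146 reads, COL9A3 122 and MATN3 64, and COL2A1, ACAN and COL9A1 were at 0. Of 9 melanocyte and glial genes, the field of SOX10, 4 were detected, with 1326 reads for MBP, 777 for MITF and 99 for PMEL, and TYR, MLANA and S100B at 0. Of 10 neural and neuroendocrine genes 3 were detected, with 2754 reads for NES, 276 for TUBB3 and 66 for SYP, and PAX6, DCX and CHGA at 0. Of 7 squamous and basal genes, the field of SOX2, 2 were detected, PAX9 with 654 reads and TP63 with 418, while KRT14, KRT5 and PKP1 had 8, 2 and 1. Of 8 cardiac genes, the field of GATA4, 1 was detected, TNNT2 with 36 reads, with NPPA at 5 and NKX2-5 and MYH6 at 0.

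**Figure D4:**
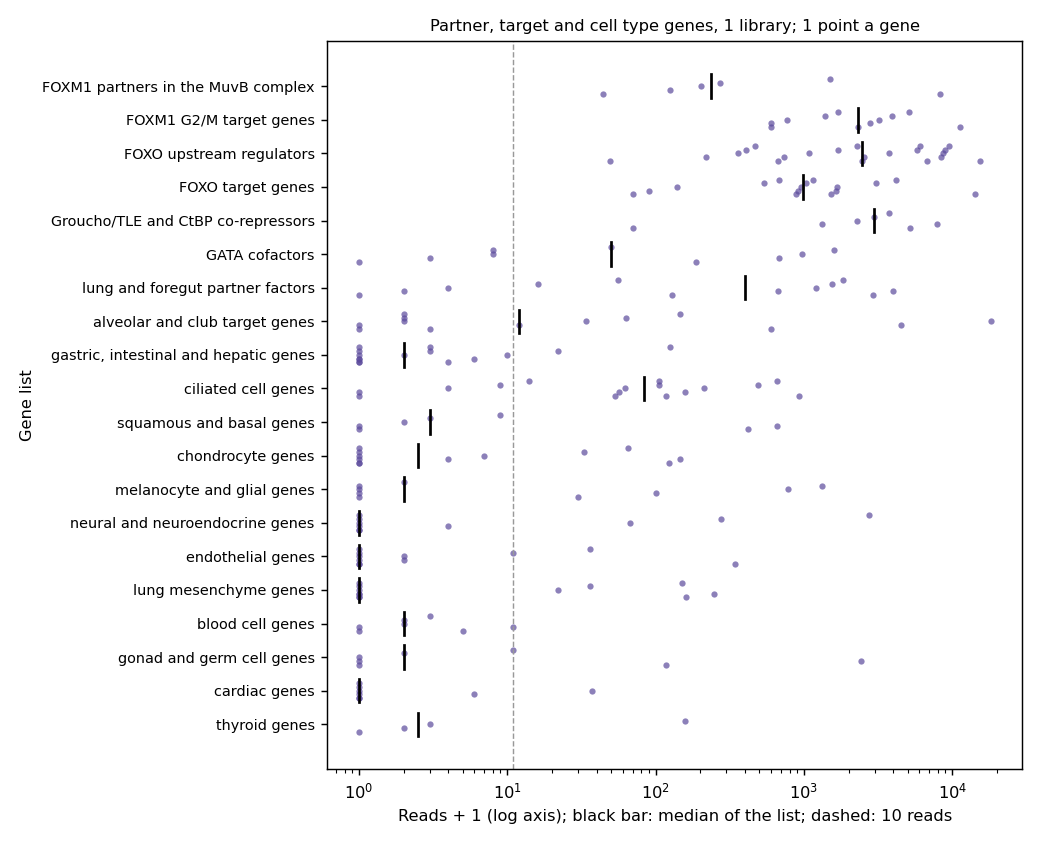
Reads plus 1 (log axis) of each gene in 20 lists of partners, targets and cell type genes, 1 point a gene; the black bar is the list's median and the dashed line marks 10 reads. Lists of FOXM1 and FOXO partners and targets lie wholly to the right of the dashed line, while the endothelial, mesenchymal, neural and cardiac lists have a median of 0 reads.

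Many of these genes share their surroundings with a non-coding RNA. Among 25 non-coding transcripts that carry a member's name or lie beside a member, 8 were detected (32.0%), beside 28.0% of all long non-coding RNA genes. GATA2-AS1 had 678 reads, or 27.1 CPM, a ratio to GATA2 of 0.914 (0.822 to 1.02), so the read numbers of the 2 genes did not differ beyond counting error. FOXD2-AS1 had 99 reads against 28 for FOXD2, a ratio of 3.54 (2.30 to 5.59). SOX21-AS1 had 31 reads against 115 for SOX21, and FOXN3-AS1 had 36 against 290 for FOXN3.

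Elsewhere a well-read member stood beside a partner of few reads or none. LINC00261, the long non-coding RNA beside FOXA2, was at 0 while FOXA2 had 849 reads, and FOXCUT, beside FOXC1, was at 0 while FOXC1 had 641. SOX9-AS1 had 26 reads against 1985 for SOX9, FOXP4-AS1 had 21 against 2449 for FOXP4 and GATA6-AS1 had 8 against 337 for GATA6. SOX2-OT and FENDRR, which lie over SOX2 and beside FOXF1, had 1 read each. The RNA kit was directional, but the strand setting of the counting is not stated, so reads of overlapping genes on opposite strands may not have been told apart.

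Head-to-head neighbours, genes on the opposite strand whose start lies at most 2000 bases upstream of a member's start, were then sought among the promoter windows. Of 53 members with a window 17 had such a neighbour, and 16 of these neighbours had a row. Both genes were detected in 7 pairs, the member alone in 5, the neighbour alone in 3 and neither in 1. Of the neighbours 12 were long non-coding RNA genes and 5 were coding genes. Over all genes of these types 28.0% and 69.7% were detected. The same search was not run over all coding genes, so these counts describe the pairs only. SOX6, with 5 reads, starts 170 bases from C11orf58, which had 1622 reads. FOXA3, with 3 reads, starts 1179 bases from SYMPK, a gene of RNA 3′ end formation with 3443 reads. FOXL2 and FOXL2NB, which start 80 bases apart, had 162 and 76 reads, and SOX12 and NRSN2-AS1 had 2703 and 176. FOXA1 and TTC6, which start 380 bases apart, had 12 and 0.

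Over the 53 members with a window, the ratio of observed to expected CpG sites (1 where CpG is as frequent as the C and G content implies) had a median of 0.837 in the 31 detected and 0.714 in the 22 undetected members, which leaves out 11 of the 42 detected members, FOXM1, SOX9 and FOXA2 among them. Over all protein-coding genes with a window the medians were 0.832 in 10835 detected and 0.337 in 4402 undetected genes. A ratio of at least 0.6 was found in 83.9% of detected and 59.1% of undetected members, and in 80.4% and 32.0% of all detected and undetected coding genes. The undetected members thus stood nearer to the detected ones than undetected coding genes did, and this difference was not tested. Spearman's rho between the CpG ratio and reads was 0.447 across the 53 members and 0.481 across 15237 coding genes, which are not independent replicates and share 1 library. SOX4, at a ratio of 0.485 and 4042 reads, and FOXA1, at 0.966 and 12 reads, lay far from this trend.

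**Figure D5:**
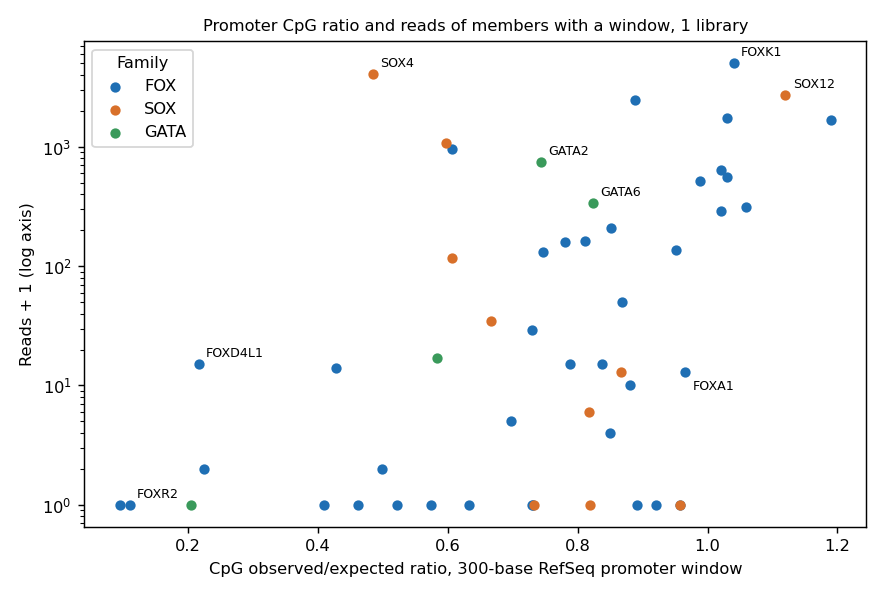
CpG observed/expected ratio of the RefSeq promoter window (x) and reads plus 1 (log y axis) for 53 members, coloured by family, each at its most upstream window. SOX4 combines a ratio of 0.485 with 4042 reads, and FOXA1 a ratio of 0.966 with 12 reads.

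Short core motifs of the families were searched in the same windows on both strands. The forkhead core TGTTTAC was found in 2 of 53 members (3.77%), those of SOX12 and FOXO4, and in 2.67% of coding genes. The GATA core AGATAA was found in 5.66% of members and 7.55% of coding genes, and the SOX core ACAATG in 7.55% and 7.84%. The TATA core TATAAA was found in 13.2% and 9.69%. A match describes letters in the window and not a bound site.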

How the data were processed

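The authors deposited unnormalised read counts, whole numbers listed by Ensembl identifier. Per the labels, a directional kit was used on 1 ug of total RNA taken with Trizol. The submitters' processing notes name STAR, featureCounts and hg19, without roles. Neither annotation release nor strand setting is given in the sources used here. Identifiers were matched without version to symbols for 56373 of 60880 rows, which held 99.8% of counts. Gene types came from RefSeq (GRCh38.p14), used for names, types and neighbourhood, and promoters from its windows, the most upstream per gene. No transcript lengths were used, so the planned values per kilobase were not computed.

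CPM is a count over the total of 25012733 reads, times 1000000, with exact Poisson (Garwood), binomial (Clopper-Pearson) and conditional ratio intervals at 95%. The members, the 20 gene lists (214 entries, 213 with a row; SOD2 had none) and the pairs for ratios were chosen with earlier results of these data known. Members were named, as were the 3 highest genes of each list and up to 3 under 10 reads; other list genes, and the promoters and neighbours shown, were chosen after their values were seen. A few genes that this rule would name are not reported here. With 1 library, no p-value was computed. The intervals were tested on simulated Poisson counts, which checks their computation and not the spread of real libraries. Alternatives were other minimums and other library totals. Software was SciPy 1.17.1, pandas 2.3.3, NumPy 2.4.6 and Matplotlib 3.10.9 in Python 3.11.15.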

Additional observations from a re-analysis of the deposited data

How the results depend on the processing

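At minimums of 1 read, 5 reads, 50 reads and 1 CPM, the number of detected members stayed within 1.5 times of its value in each family, except for SOX, where 6 genes reached 50 reads against 10 at the minimum of 10 reads. Without mitochondrial genes in the total the share of reads became 0.0816% for FOX and 0.0426% for SOX. Without the 10 most read genes of the library they became 0.0831% for FOX, 0.0434% for SOX and 0.00471% for GATA, and over protein-coding genes only 0.0840%, 0.0439% and 0.00476%, since a smaller total raises every share by 1.06 to 1.09 times. Leaving out FOXO3B, FOXD4 and the 4 FOXD4-like genes, chosen after seeing the data, left 27 of 44 FOX genes detected. Of the 20 lists, the number detected moved by over 1.5 times in 8 at 1 read, 5 at 50 reads and 2 at 1 CPM. Values per kilobase were not run. No paired analysis was possible because values came from a single library. A member under 10 reads is not shown to be absent at this depth.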

Other observations

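Genes of other tissues in which detected members act were also read. FOXL2 acts in the gonad, and of 7 gonad and germ cell genes 3 were detected (42.9%, beside 69.7% of all protein-coding genes): AMH had 2418 reads, INHA 117 and STAR 10, while NR5A1 had 1 and DDX4 and DAZL were at 0. FOXE1 acts in the thyroid, and of 4 thyroid genes 1 was detected (25.0%), PAX8 with 156 reads, while TG and TSHR had 2 and 0.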
